A study of Mus musculus with 6 samples.

Results

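The genes described here encode serpins and other protease inhibitors of mouse mast cells. They were chosen by name: every gene whose symbol starts with Serpin, Spink, Stfa or Timp, together with Cst3, Cst7, Cstb, Slpi, Wfdc2, Itih1 to Itih5, A2m and Pzp, in all 98 of the 35297 genes with a matched transcript. Csta, which the rule also names, is not a symbol of the gene table used, and the gene that has it as an older name, Csta1, had 0 reads in each library. RNA was sequenced from bone marrow-derived mast cells (BMMCs) of naive wild type mice of the strains BALB/c and C57BL/6 on day 20 of culture. Both strains were grown in the same medium, which held the cytokines TGF-β1, IL-3 and IL-9 as well as stem cell factor, so that strain is the one labelled difference between the groups. There were 3 BALB/c libraries, S9, S10 and S11, and 3 C57BL/6 libraries, S12, S13 and S14. The comparison asks how the inhibitors that stand against the proteases of mast cells differ between the strains.

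Serpins are inhibitors that offer a flexible loop as bait, and most of them trap the protease that cuts it in a complex from which it is not released. Clade A serpins are for the most part secreted, while clade B serpins lack a classical signal peptide and mostly stay inside the cell, where many of them hold granule proteases in check. Stefins and cystatins block lysosomal cysteine cathepsins, Kazal-type inhibitors (Spink) block trypsin-like proteases, Timp proteins block matrix metalloproteases, and the heavy chains of inter-alpha-trypsin inhibitor (Itih) are bound to hyaluronan. Mast cells store large amounts of serine proteases, chymases and tryptases among them, in their granules.

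Between 28273365 and 37100869 reads per library were assigned to genes, and the 10 mast cell marker genes, among them Kit, Fcer1a and Cpa3, were all expressed in both strains. Levels are given as CPM, the reads of a gene scaled to library size with TMM correction, which serves to compare the strains, or as TPM, which also takes account of transcript length and serves to compare genes. Differences between the strains are given as log2 fold changes, positive where C57BL/6 BMMCs had more, and were fitted with edgeR's quasi-likelihood test over 12461 genes, with Benjamini-Hochberg adjustment. A gene was called when its adjusted p was under 0.05 and its fold change above 2. The p-values measure the spread between these cultures. As the RNA is from whole cultures, fewer cells that express a gene and less of its RNA in each cell cannot be told apart.

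Most protease inhibitor genes had no or few reads on the transcripts that could be matched to a gene. Transcripts that were not matched held 2.69% to 3.12% of reads and may include further ones of these genes, so that 0 reads does not show that a gene was silent. Of the 98 genes, 60 had no read in any library, 14 had some but fewer than 10 reads in each, and 24 reached 10 reads in at least 1 library. The filter on low counts left 20 of the 98, and all statements on tests below are about these 20. Of the 26 clade A serpins 19 had no reads, of the 28 clade B serpins 17, of the 11 serpins of other clades 4, of the 13 Spink genes 10 and of the 7 stefins and cystatins 4. A2m and Pzp, the broad-range inhibitors of alpha-2-macroglobulin type, had no reads. The 6 Serpina1 genes, which encode the antitrypsin of liver and plasma, and the 4 Serpinb3 genes were likewise without reads in all 6 libraries.

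The inhibitors that were expressed made up a small and similar share of the RNA in both strains. Their TPM values summed to 3428.5, 3520.2 and 3401.9 in the BALB/c libraries and to 3150.9, 3071.3 and 3058.9 in the C57BL/6 libraries, or between 0.306% and 0.352% of all TPM. The sums of the strains did not overlap and were lower in C57BL/6 BMMCs. TPM has no TMM correction, however, and on log2(TPM + 1) the median log2 fold change of all genes was -0.15. The lower sums cannot be told apart from this shift of the scale. The 8 most abundant inhibitors held between 99.0% and 99.5% of this sum in each library.

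Serpinb1a, an intracellular inhibitor of elastase-like and chymase-like proteases, had the highest mean level, with 852, 842 and 858 TPM in BALB/c against 1101, 1082 and 1060 TPM in C57BL/6 BMMCs. Cst3, the secreted cystatin C, reached 908, 980 and 878 TPM in BALB/c against 795, 783 and 787 TPM in C57BL/6 BMMCs. Thus Cst3 stood first and Serpinb1a second in BALB/c BMMCs, and the order was turned in C57BL/6 BMMCs. Cst7, or cystatin F, which acts in endosomes and lysosomes and blocks cathepsins C and L, followed in both strains, with 708, 739 and 785 TPM in BALB/c against 590, 565 and 558 TPM in C57BL/6 BMMCs. Serpina3g, a serpin that stays inside the cell and blocks cysteine cathepsins, was the fourth, with 414, 410 and 379 TPM in BALB/c against 236, 208 and 226 TPM in C57BL/6 BMMCs. For each of these 4 genes the TPM values of the strains did not overlap. On CPM, which has the TMM correction, those of Cst3 did overlap (log2 fold change -0.04, adjusted p 0.4439, edgeR).

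The other 4 of the 8 had lower mean levels. Cstb, the cytosolic stefin B, was at 189, 193 and 192 TPM in BALB/c against 199, 192 and 202 TPM in C57BL/6 BMMCs, values that overlapped. Serpinb6a, an intracellular inhibitor of cathepsin G, was at 108, 110 and 108 TPM in BALB/c against 132, 139 and 131 TPM in C57BL/6 BMMCs. Spink2, a Kazal-type inhibitor best known from testis, was at 185, 184 and 145 TPM in BALB/c against 63.0, 66.9 and 61.3 TPM in C57BL/6 BMMCs. Spink2 ranked above Serpinb6a in each BALB/c library and below it in each C57BL/6 library. Serpina3f, a near relative of Serpina3g, was at 44.0, 42.5 and 37.6 TPM in BALB/c against 6.25, 4.77 and 6.00 TPM in C57BL/6 BMMCs, where Serpinb9 stood above it.

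**Figure D1:**
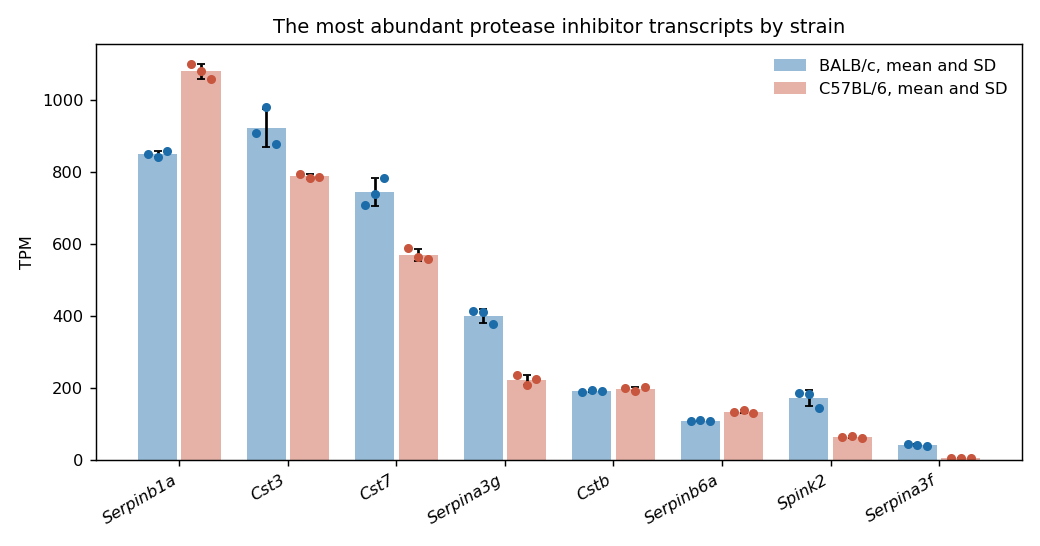
TPM of the 8 most abundant protease inhibitor genes. Bars are the mean and error bars the SD of 3 libraries per strain, and points are single libraries; Serpinb1a and Serpinb6a stood higher in C57BL/6, and Spink2, Serpina3g and Serpina3f higher in BALB/c BMMCs.

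By edgeR's quasi-likelihood test, 4 inhibitors were called higher in C57BL/6 BMMCs (among them Serpinb6b, Serpinb2 and Itih5), where 7.73% of all genes tested were, and 4 were called higher in BALB/c BMMCs (Serpinf1, Serpina3f, Serpina3h and Spink2), where 5.54% of all genes were. Together these are 8 of 20, or 40.0%, against 13.3% of all genes. Of the 20, 4 were below the level of the filter on low counts in at least 1 library: Serpinb6b and Serpinb2 passed the filter through C57BL/6, Serpina3h through BALB/c and Serpinb1c through libraries of both strains. A gene that passes through the strain where it is high is likely to be called, and of the 16 at that level in every library 5, or 31.2%, were called, 2 of them higher in C57BL/6. This smaller set leaves out genes that are low in a strain, and the 13.3% of all genes was not restricted in the same way. A fit on genes with at least 10 counts in every library, a similar restriction, called 1017 of 11341. The counts here, and those of such smaller sets below, are given as a description. Another 7 had an adjusted p under 0.05 with a change of less than 2-fold, so that 15 of 20, or 75.0%, passed on the adjusted p alone, against 52.9% of all genes. Strain groups free of overlap were seen for 15 of the 20, against 61.9% of all genes. The median log2 fold change of the 20 was 0.09, near the -0.01 of all genes, while the median of the absolute values was 0.77 against 0.24. Only 2 of the 8 most abundant inhibitors, Spink2 and Serpina3f, were among those called.

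**Figure D2:**
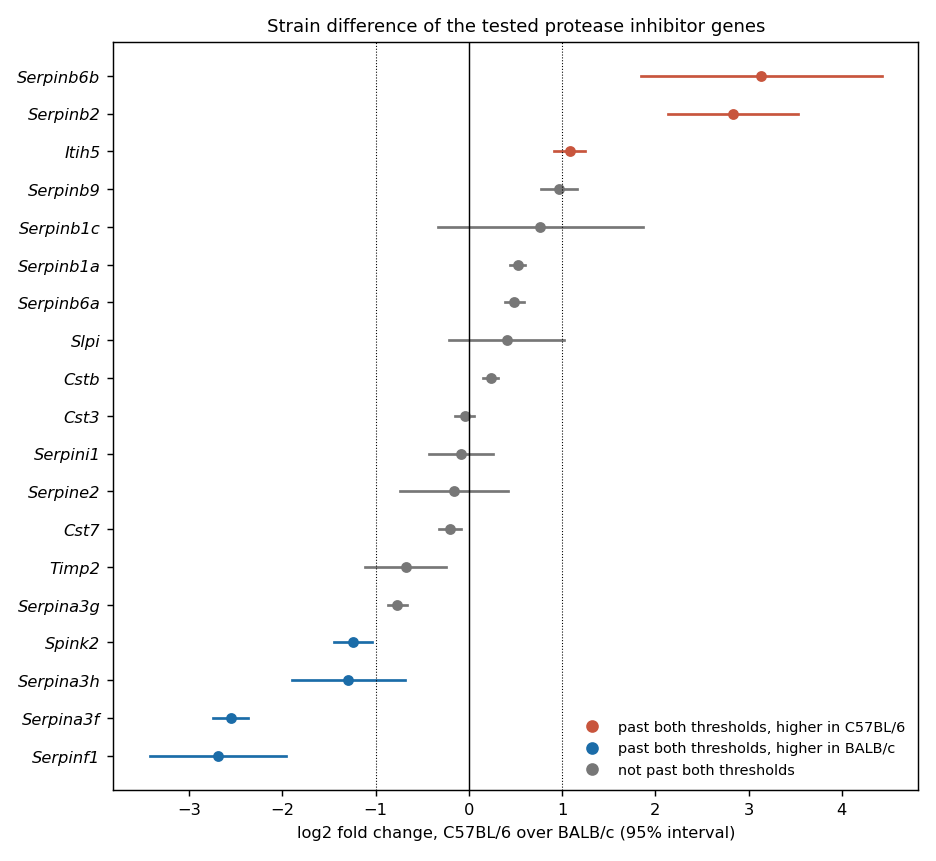
Strain difference (log2 fold change, C57BL/6 relative to BALB/c) of 19 inhibitor genes tested, with 95% confidence intervals from edgeR; dotted lines mark a 2-fold change. The values run from -2.69 for Serpinf1 to 3.14 for Serpinb6b, whose value rests on few BALB/c reads.

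**Figure D3:**
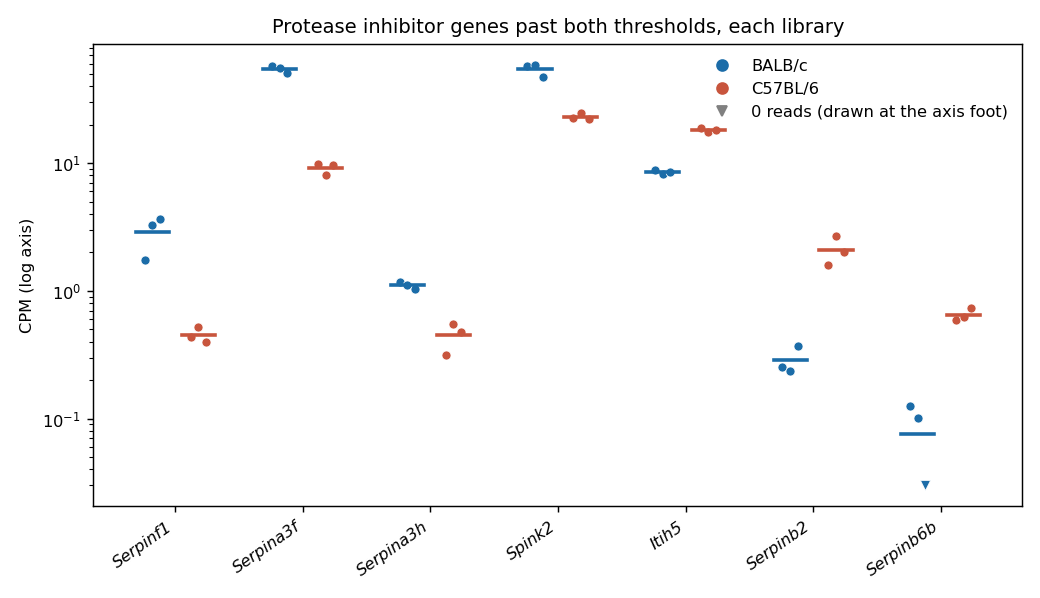
CPM, on a log axis, of 7 inhibitor genes that passed both thresholds, with a point for each library and a line at the mean of each strain (n = 3). The strain groups are apart in all 7 genes, and the triangle marks the BALB/c library S11, which had 0 reads of Serpinb6b.

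Among the clade A serpins all 3 that were tested, Serpina3f, Serpina3g and Serpina3h, had an adjusted p under 0.05 and lower levels in C57BL/6, and 2 of them passed the 2-fold threshold. Over all genes tested, 25.9% passed the adjusted p with higher levels in BALB/c and 5.54% passed both thresholds. The 3 genes share sequence and are neighbours on the forward strand of chromosome 12, within a cluster of 11 Serpina3 genes in the files. Serpina3f lies from 104180772 to 104187388 and Serpina3g from 104202386 to 104208203 (GRCm39), so that 21.6 kb separate their starts. Serpina3h, from 104216411 to 104219928, is annotated as a transcribed pseudogene, beside a long non-coding RNA of that name.

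Because both neighbours were lower in the same strain, their promoters are shown, 250 bases before to 50 bases after a transcription start as RefSeq gives it. Each sequence is from the RefSeq table of GRCm38.p6 and was found once, without a mismatch, in GRCm39, at chr12:104180553-104180852 for Serpina3f and at chr12:104202156-104202455 for Serpina3g, both on the forward strand. Capitals mark 4 short words, searched on both strands. The word TTCNNNGAA is the element that STAT proteins bind, called GAS. The word TATAAA is the box at which the basal transcription machinery assembles. The others are words bound by GATA factors, searched as AGATAA and, with another leading base and in no window printed here, as TGATAA.
Serpina3f: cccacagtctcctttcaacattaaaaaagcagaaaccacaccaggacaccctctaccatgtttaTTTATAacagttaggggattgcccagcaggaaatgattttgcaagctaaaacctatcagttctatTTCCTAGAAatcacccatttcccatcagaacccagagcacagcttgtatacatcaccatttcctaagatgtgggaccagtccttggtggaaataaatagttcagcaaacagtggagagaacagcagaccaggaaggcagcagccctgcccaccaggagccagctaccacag
Serpina3g: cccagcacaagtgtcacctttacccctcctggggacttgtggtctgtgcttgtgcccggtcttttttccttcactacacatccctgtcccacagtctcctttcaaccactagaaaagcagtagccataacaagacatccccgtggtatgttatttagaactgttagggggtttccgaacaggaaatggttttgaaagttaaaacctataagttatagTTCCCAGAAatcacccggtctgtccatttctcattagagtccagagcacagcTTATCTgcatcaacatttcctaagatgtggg
Both promoters hold 1 GAS word, which 8.3% of 32851 RefSeq promoters of this length hold. The TATA box word of Serpina3f, on the reverse strand, occurs in 13.62% of promoters, and the AGATAA word of Serpina3g, also on the reverse strand, in 11.18%. An alignment of the pair had 169 identical and 33 different bases, or 83.7% identity, beside 196 bases in gaps. RefSeq lists a second start of Serpina3f 89 bases downstream, whose window holds the same GAS word and no TATA box word, and its alignment to Serpina3g had 153 identical and 94 different bases, or 61.9% identity, beside 106 bases in gaps. These are reference sequences of C57BL/6J, and the sequence of BALB/c was not used here. A word match is a description of the sequence and not a binding site.

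Serpina3f had 57.1, 55.9 and 50.4 CPM in BALB/c against 9.86, 8.13 and 9.63 CPM in C57BL/6 BMMCs. The lowest BALB/c library was thus several times above the highest C57BL/6 library. The means were 54.5 ± 3.60 and 9.21 ± 0.939 CPM (SD, n = 3), and Serpina3f fell in C57BL/6 by 2.56 on the log2 scale (standard error [SE] 0.08, adjusted p 2.638e-08, edgeR's quasi-likelihood test), or 5.88-fold.

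Serpina3g, far more abundant, had 496, 498 and 469 CPM in BALB/c against 297, 274 and 289 CPM in C57BL/6 BMMCs. The groups did not overlap, and the log2 fold change of -0.77 (SE 0.04, adjusted p 1.074e-06, edgeR) stayed under 2-fold. Serpina3h had 37.1, 33.4 and 38.8 reads in BALB/c against 9.5, 15 and 16.7 reads in C57BL/6 libraries. On few reads, its log2 fold change was -1.30 (SE 0.27, adjusted p 0.00307, edgeR).

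These 3 genes share sequence, which bears on how Salmon could divide their reads. Of the 31-base words in the transcripts of Serpina3f, 27.7% also occur in another gene, 15.5% in Serpina3g and 11.3% in Serpina3h. For Serpina3g the share was 44.8%, most of it in Gm56487, which overlaps it on the same strand, and for Serpina3h it was 16.6%. Summed over the 11 Serpina3 genes, the reads on matched transcripts were 17679.1, 16543.7 and 19544.5 in BALB/c libraries. In C57BL/6 libraries they were 9816.7, 7641.4 and 10575.4, and in both strains most were from Serpina3g. The log2 fold change of the sum was -0.88 (SE 0.05, adjusted p 5.511e-07, edgeR), lower in C57BL/6 and under 2-fold, so that the calls of Serpina3f and Serpina3h were not made on the sum.

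The strains also differed in which transcripts of Serpina3f and Serpina3g Salmon assigned the reads to. For Serpina3g the 1513-base transcript took 1.12%, 1.34% and 1.22% of the reads of the gene in BALB/c and 24.6%, 25.3% and 24.8% in C57BL/6 BMMCs. Fitted over 28246 transcripts, of which 6.39% were called, this transcript was higher in C57BL/6, with a log2 fold change of 3.56 (SE 0.09, adjusted p 6.507e-05, edgeR), against the direction of the gene. The 1920-base transcript, which held the rest, was lower by -1.18 (SE 0.05, adjusted p 1.944e-04).

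Of Serpina3f, the 2042-base transcript held all reads in the 3 BALB/c libraries. In C57BL/6 it held 28.0% in S12, 0% in S13 and 25.3% in S14. The 2254-base transcript had 0 reads in each BALB/c library and 226.9, 219.7 and 254.9 reads in the C57BL/6 libraries, so that it was seen in C57BL/6 alone. The 2042-base transcript was lower in C57BL/6, with a log2 fold change of -4.96 (SE 1.05, adjusted p 0.0329, edgeR). Its adjusted p was above 0.05 when S9, S10, S11, S12 or S14 was left out, between 0.0915 and 0.114, and 0.00109 without S13, the library at 0. The uncertainty of the assignment to transcripts of one gene is not part of these tests. Both strains were quantified against the same RefSeq transcripts. The part of sequence differences between the strains in the reads of these genes and transcripts was not tested.

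**Figure D4:**
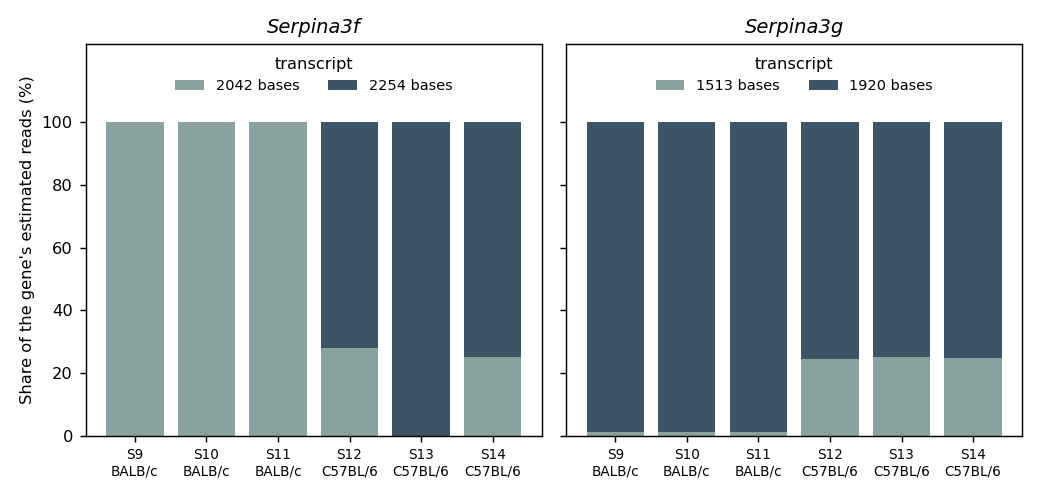
Share of the estimated reads of Serpina3f and of Serpina3g assigned to each of their transcripts, in percent, for each library. The 1513-base transcript of Serpina3g took at most 1.34% in BALB/c and at least 24.6% in C57BL/6 libraries, and the 2254-base transcript of Serpina3f had reads in C57BL/6 libraries alone.

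Of the 6 clade B serpins tested, 5 had an adjusted p under 0.05, all higher in C57BL/6 BMMCs, and 2 of these, Serpinb2 and Serpinb6b, passed the 2-fold threshold. Both of these passed the filter only through their C57BL/6 libraries. Of the 3 at the filter level in every library, Serpinb1a, Serpinb6a and Serpinb9, each passed the adjusted p with higher levels in C57BL/6, and none passed the 2-fold threshold. Over all genes tested, 27% passed the adjusted p with higher levels in C57BL/6 and 7.73% passed both thresholds. The summed TPM of the clade was 965, 956 and 971 in BALB/c against 1243, 1232 and 1201 in C57BL/6 BMMCs, nearly all of it Serpinb1a and Serpinb6a.

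Serpinb1a had 1034, 1035 and 1074 CPM in BALB/c against 1504, 1547 and 1471 CPM in C57BL/6 BMMCs. The groups were far apart for their spread, and the log2 fold change was 0.52 (SE 0.03, adjusted p 2.628e-06, edgeR), or 1.44-fold. Serpinb6a was 1.40-fold higher in C57BL/6, with means of 97.0 ± 1.69 CPM in BALB/c against 136 ± 7.40 CPM in C57BL/6 BMMCs (SD, n = 3; log2 fold change 0.49, adjusted p 2.459e-05, edgeR).

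Serpinb9, the inhibitor by which cells protect themselves from granzyme B, had 8.29, 8.05 and 8.99 CPM in BALB/c against 15.8, 18.0 and 15.9 CPM in C57BL/6 BMMCs. Its log2 fold change of 0.97 (SE 0.09, adjusted p 1.656e-05, edgeR) lay just under the 2-fold threshold. It passed that threshold without S11 (1.01) and, by very little, without S12 (1.0). Of the 8 Serpinb9 genes in the files it held nearly all reads.

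Serpinb2, plasminogen activator inhibitor type 2, was low in both strains, with 0.251, 0.235 and 0.372 CPM in BALB/c against 1.60, 2.70 and 2.01 CPM in C57BL/6 BMMCs. These values stand for 8, 7 and 14 reads against 51, 73 and 71 reads. Its log2 fold change was 2.83 (SE 0.31, adjusted p 5.937e-05, edgeR), or 7.11-fold. The gene lies on chromosome 1 from 107428593 to 107463208, on the forward strand, and overlaps Serpinb10, with which it shares 8.56% of its words. Its reads were divided between a 2007-base and a 1988-base transcript without a common pattern, and the longer one took from 0% to 100% of them in BALB/c and from 47.7% to 100% in C57BL/6 libraries. RefSeq lists a downstream start of Serpinb2, whose window at chr1:107438990-107439289 holds a TATA box word, a GAS word and an AGATAA word. The window of the upstream start, at chr1:107438903-107439202 on the forward strand, is shown with the same words in capitals. It holds a TATA box word and a GAS word.
Serpinb2: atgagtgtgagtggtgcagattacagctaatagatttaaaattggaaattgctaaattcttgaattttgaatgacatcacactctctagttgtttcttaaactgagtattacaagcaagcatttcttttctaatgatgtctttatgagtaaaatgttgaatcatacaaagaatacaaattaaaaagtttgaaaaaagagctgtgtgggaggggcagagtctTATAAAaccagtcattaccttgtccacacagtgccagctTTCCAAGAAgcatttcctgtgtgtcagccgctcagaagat
Among the 16 tested inhibitors with a RefSeq promoter, which have 22 windows, a GAS word was found in those of Serpina3f, Serpina3g, Serpinb2 and Serpinb6a, genes that differed between the strains in both directions.

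Serpinb6b, an intracellular serpin related to Serpinb6a, had 4, 3 and 0 reads in BALB/c against 19, 17 and 26 reads in C57BL/6 libraries. It passed the filter on low counts through the C57BL/6 libraries alone. Its fitted log2 fold change was 3.14 (SE 0.57, adjusted p 0.00148, edgeR), and it rests on a handful of BALB/c reads. The fitted value was 2.48 without S11 and 3.75 without S9, and 7.41 when only transcripts whose accession version matched the RefSeq table were counted, so that its size is poorly determined. Summed over the 5 Serpinb6 genes, of which Serpinb6a holds nearly all reads, the log2 fold change was 0.49 (adjusted p 2.24e-05, edgeR), under 2-fold, so that the call of Serpinb6b was not made on the sum. The C57BL/6 reads were all on a 2141-base transcript that had 0 reads in BALB/c, where the few reads lay on predicted transcripts of 1926 and 1892 bases. The gene spans chromosome 13 from 33073279 to 33163050 on the forward strand and overlaps Serpinb1c on the other strand. Serpinb1c itself, with 2 to 12 reads per library, had a log2 fold change of 0.77 with a 95% interval from -0.33 to 1.87 (adjusted p 0.2155, edgeR), so that no difference was detectable at this depth.

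Among the serpins of other clades, 3 are described. Serpinf1 encodes pigment epithelium-derived factor, a secreted serpin not known to inhibit proteases. It had 1.76, 3.25 and 3.67 CPM in BALB/c against 0.438, 0.517 and 0.395 CPM in C57BL/6 BMMCs, from 56, 97 and 138 reads against 14, 14.2 and 14 reads. The BALB/c library S9 was the lowest of its group and still above all C57BL/6 libraries. Serpinf1 fell in C57BL/6 by 2.69 on the log2 scale (SE 0.32, adjusted p 1.165e-04, edgeR), or 6.46-fold. It lies on the reverse strand of chromosome 11 from 75299998 to 75322362, and Serpinf2, the inhibitor of plasmin, is the adjacent gene.

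Serpine2, the thrombin inhibitor also called protease nexin 1, had 3.52, 1.64 and 2.98 CPM in BALB/c against 2.38, 2.74 and 2.23 CPM in C57BL/6 BMMCs. The groups overlapped, with a log2 fold change of -0.16 and a 95% interval from -0.74 to 0.42 (adjusted p 0.6294, edgeR). Serpini1, or neuroserpin, an inhibitor of tissue plasminogen activator, was at 2.71 ± 0.230 CPM in BALB/c against 2.56 ± 0.258 CPM in C57BL/6 BMMCs (SD, n = 3; log2 fold change -0.08, 95% interval from -0.43 to 0.26, adjusted p 0.6669, edgeR). Both intervals lie within a 2-fold change.

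The 3 stefins and cystatins tested differed by less than 2-fold. Cst7 was lower in C57BL/6, with 397, 420 and 454 CPM in BALB/c against 373, 373 and 359 CPM in C57BL/6 BMMCs (log2 fold change -0.20, SE 0.05, adjusted p 0.00878, edgeR). Cstb was higher in C57BL/6, with 55.1, 57.2 and 57.6 CPM in BALB/c against 66.0, 65.8 and 67.8 CPM in C57BL/6 BMMCs (log2 fold change 0.23, SE 0.04, adjusted p 7.473e-04, edgeR). Cst3 was at 388, 426 and 387 CPM in BALB/c against 385, 394 and 387 CPM in C57BL/6 BMMCs, with overlap (log2 fold change -0.04, 95% interval from -0.14 to 0.06, adjusted p 0.4439, edgeR).

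Differences of this size depend on the scale. With plain library size in place of TMM the median of all genes moved from -0.01 to -0.15. The log2 fold change of Cstb was then 0.09 (adjusted p 0.0789), that of Cst3 -0.19 (adjusted p 0.00620) and that of Cst7 -0.35 (adjusted p 3.545e-04, all edgeR). Stfa genes, the stefins of neutrophils, had no reads.

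Of the remaining inhibitors, Spink2 and Itih5 were called. Spink2 had 57.6, 58.5 and 46.8 CPM in BALB/c against 22.4, 24.6 and 22.0 CPM in C57BL/6 BMMCs. Even the lowest BALB/c library, S11, was well above all C57BL/6 libraries, and Spink2 fell in C57BL/6 by 1.24 on the log2 scale (SE 0.09, adjusted p 4.383e-06, edgeR), or 2.36-fold. It lies on the reverse strand of chromosome 5 from 77352953 to 77359318, and from 98.95% to 99.76% of its reads were on a 631-base transcript. It was the only one of the 13 Spink genes that was tested. Spink4, with 7 to 13 reads per library in both strains, failed the filter.

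Itih5, a heavy chain of inter-alpha-trypsin inhibitor, had 8.89, 8.15 and 8.49 CPM in BALB/c against 18.7, 17.4 and 18.0 CPM in C57BL/6 BMMCs. The groups were narrow and far apart, and Itih5 rose in C57BL/6 with a log2 fold change of 1.08 (SE 0.07, adjusted p 2.872e-06, edgeR), or 2.12-fold. It was just inside the 2-fold threshold, and with plain library size it was just outside, at 0.94. All its reads were on 1 transcript of 7942 bases, from a gene on the forward strand of chromosome 2 from 10158281 to 10261340.

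Timp2, an inhibitor of matrix metalloproteases, was lower in C57BL/6, with 2.04, 2.42 and 1.86 CPM in BALB/c against 1.41, 1.40 and 1.13 CPM in C57BL/6 BMMCs (log2 fold change -0.68, SE 0.19, adjusted p 0.0146, edgeR). Its adjusted p was above 0.05 with DESeq2 (0.0646) and, in edgeR, without S10 (0.0549) or without S14 (0.0595). Slpi, an inhibitor of elastase and cathepsin G in secretions, had 17 to 31 reads per library and overlapped between the strains (log2 fold change 0.40, 95% interval from -0.22 to 1.02, adjusted p 0.2457, edgeR). Matn4, which overlaps Slpi on the same strand, shares 21.8% of its words.

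Besides Spink4, 3 inhibitors had 10 or more reads in at least 1 library and failed the filter. Timp1 had 9, 0 and 5 reads in BALB/c against 13, 8.7 and 8 reads in C57BL/6 libraries. Serpinb8 had 0, 1 and 0 reads in BALB/c against 7, 8 and 19 reads in C57BL/6 libraries and was not tested. Serpina3i had 21.3 reads in S9 and 0 in each of the other 5 libraries, counted on matched transcripts only. The study lists Serpina3i with reads and as lower in C57BL/6 than in BALB/c BMMCs. The counts given here therefore do not show its level, and the cause of the disagreement was not tested. Serpina3i shares 14.2% of its words with other genes, Serpina3h and Serpina3g among them.

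Protease inhibitors of other families were described for comparison. Of 60 in the files 18 were tested, and 9 of them were called higher in C57BL/6 BMMCs and 1 higher in BALB/c BMMCs. Among all genes 7.73% and 5.54% were. Of the 14 at the filter level in every library, which leaves out Reck, App, Wfikkn2 and Agrn, 6, or 42.9%, were called higher in C57BL/6 and 1, or 7.1%, higher in BALB/c. The median log2 fold change was 1.0 over the 18 and 0.57 over the 14. Ctla2a, a cathepsin L inhibitor resembling a protease propeptide, had a mean of 2444 TPM, above that of each of the 98 genes, and was higher in C57BL/6 with a log2 fold change of 1.36 (adjusted p 1.762e-07, edgeR). Its relative Ctla2b was higher by 1.94. Spint1, a Kunitz-type inhibitor of the activator of hepatocyte growth factor, was higher by 2.34, and Ecm1, a matrix protein that binds proteases, by 1.93. Also higher in C57BL/6 were App (2.52), Wfikkn2 (2.08), Crim1 (1.94) and Spock2 (1.05), each at a mean of 12.6 TPM or less. Reck, a membrane-bound inhibitor of metalloproteases, had 1, 1 and 2 reads in BALB/c against 70, 49 and 68 reads in C57BL/6 libraries, and it passed the filter through the C57BL/6 libraries alone. Spock2 was below 2-fold in 5 of 17 alternatives, among them without S10 (0.96), without S13 (0.99) and with plain library size (0.90). Pi16, a peptidase inhibitor by name, was the one called higher in BALB/c, with a log2 fold change of -2.85 (adjusted p 1.62e-07, edgeR). Among the abundant ones that were not called, Lxn (0.46), an inhibitor of carboxypeptidases, Cast (0.52), the inhibitor of calpains, and Aplp2 (0.51) were higher in C57BL/6, and Pebp1 (-0.22) was lower, each with an adjusted p under 0.05. Spint2 had a log2 fold change of 0.30 (adjusted p 0.09104, edgeR).

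**Figure D5:**
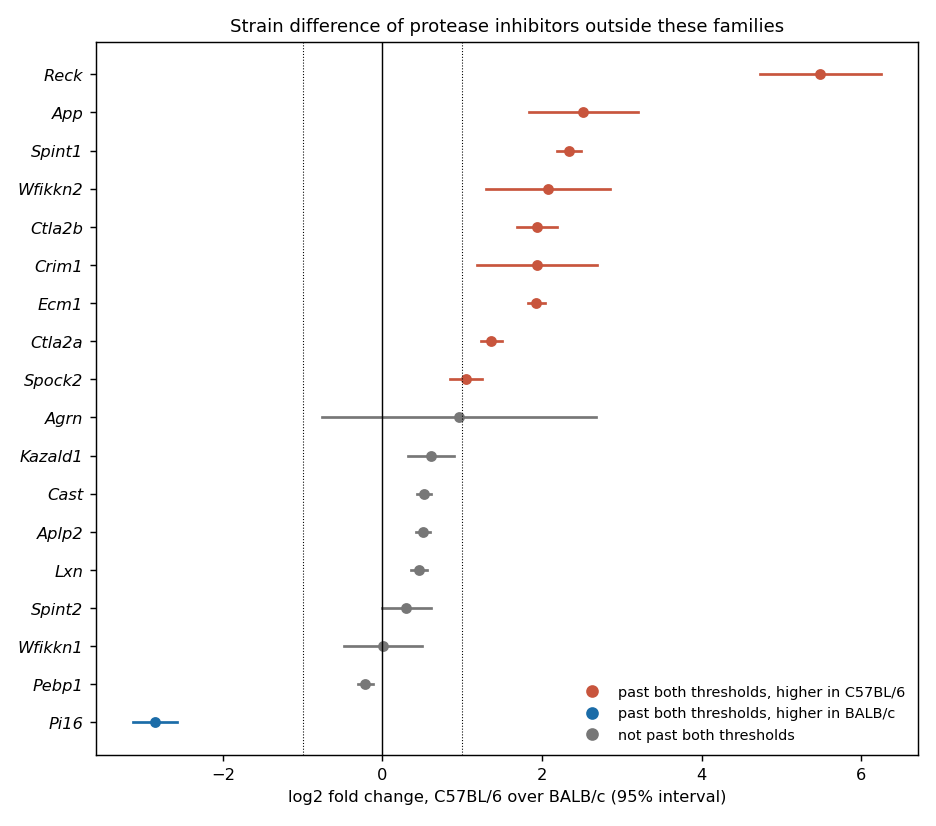
Strain difference (log2 fold change, C57BL/6 relative to BALB/c) of the 18 tested protease inhibitors outside the 98 genes, with 95% confidence intervals from edgeR; dotted lines mark a 2-fold change. Of the points past both thresholds, 9 lie on the C57BL/6 side and Pi16 lies on the BALB/c side.

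The proteases that such inhibitors are known to act on were set beside them. Of 60 proteases in the files 40 were tested, and 15, or 37.5%, were called higher in C57BL/6 and 5, or 12.5%, higher in BALB/c BMMCs, against 7.73% and 5.54% of all genes, with a median log2 fold change of 0.47. Of the 34 at the filter level in every library, 12, or 35.3%, were called higher in C57BL/6 and 4, or 11.8%, higher in BALB/c, with a median of 0.36. Beside Serpinb2 at 2.83, its target Plau, urokinase, was higher in C57BL/6 by 1.01 (adjusted p 1.871e-07, edgeR). Plau was under 2-fold in 7 of 17 alternatives, among them without S10 (0.97), without S13 (0.98) and with plain library size (0.86). Beside Serpinb9 at 0.97, Gzmb had a log2 fold change of 0.09 with an adjusted p of 0.2241 (edgeR). Beside Serpinb1a at 0.52 and Serpinb6a at 0.49, both inhibitors of cathepsin G, Ctsg had -1.29 (adjusted p 6.443e-05, edgeR), the opposite direction. Beside Cst7 at -0.20, its targets Ctsc, at -0.61 (adjusted p 1.623e-05), and Ctsl, at -0.98 (adjusted p 0.01005, edgeR), were lower in C57BL/6 too. Ctsl had only 18 to 57 reads per library. Of other cysteine cathepsins, Ctsb was higher in C57BL/6 (0.62, adjusted p 1.687e-06, edgeR). Ctss (-0.04) and Ctsz (-0.07) had an adjusted p above 0.05. These values are from the same 6 libraries, and no link between an inhibitor and its target was tested.

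The remaining proteases called higher in C57BL/6 were the mast cell and basophil proteases Tpsg1 (5.15), Tpsb2 (2.32), Cma2 (1.91), Mcpt8 (1.12), Mcpt9 (3.10) and Prss34, the granzymes Gzma (3.01), Gzmc (1.55), Gzmd (3.08) and Gzme (4.10), and Htra1 (2.23), Mmp14 (2.16), Hgfac (1.29) and Prcp (2.22). Of these, Mcpt8 fell under 2-fold in 3 of 17 alternatives (lowest 0.93), and Gzmc and Mmp14 in 1 of 17 each. The proteases higher in BALB/c, beside Ctsg, were Tpsab1 (-7.03), Mcpt4 (-1.16), Ctse (-4.38) and Masp2. Prss34, with 1, 8 and 2 reads in BALB/c against 213, 192 and 224 in C57BL/6 libraries, and Masp2, with 31, 22 and 51 against 4, 1 and 0 reads, each passed the filter through 1 strain alone. The most abundant proteases, Mcpt2 (0.60), Mcpt1 (0.29), Cma1 (-0.43) and Cpa3 (-0.02), changed by less than 2-fold, and Ctsd, also abundant, had 0.22.

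Some markers of other cell types moved with the strain. The summed TPM of 11 macrophage and dendritic cell markers was 3.92 to 4.66 in BALB/c against 20.0 to 22.8 in C57BL/6 libraries, with Itgax, Adgre1 and Cd68 called higher in C57BL/6, while C1qa, C1qb, C1qc, Csf1r and Cd209a were at 0 in every library. The 8 basophil markers summed to 515 to 530 TPM in BALB/c against 640 to 668 TPM in C57BL/6 libraries. The difference between the sums is mostly Mcpt8 (1.12), and 3 others that were called higher in C57BL/6, Prss34, Cebpa and Ccl9, had 13 or fewer reads in each BALB/c library. Cd200r3, the most abundant of the list in BALB/c, where Mcpt8 was in C57BL/6, had a log2 fold change of -0.07 (adjusted p 0.1537, edgeR), and Il18r1 was lower in C57BL/6 (-0.54, adjusted p 0.004145, edgeR). Of the 6 erythroid markers Hbb-bt was called higher in C57BL/6 (sums of 0.758 to 1.39 against 16.8 to 17.2 TPM). The 6 megakaryocyte markers summed to 478.6 to 496.5 TPM in BALB/c against 603.9 to 670.7 TPM in C57BL/6 libraries, nearly all of it Itga2b, which was higher in C57BL/6 (log2 fold change 0.58, adjusted p 2.88e-06, edgeR) and not called. Gp1bb, at a low level, was called higher in BALB/c, and Ppbp and Gp9 were at 0. Of the 10 neutrophil markers 7 were at 0 in every library, and their sums were 0.766 to 1.10 TPM in BALB/c against 0.754 to 1.01 TPM in C57BL/6 libraries. No eosinophil, T or NK cell, stromal or neutrophil marker was called, but few of them could be. The filter left 0 of 8 eosinophil, 0 of 7 stromal, 1 of 8 T or NK cell and 2 of 10 neutrophil markers. The 10 mast cell markers summed to 35430 to 39370 TPM in BALB/c against 34880 to 38150 TPM in C57BL/6 libraries, which overlap, and the bulk of these sums is Cma1 and Cpa3. Of the mast cell markers, Hdc (1.19) and Tpsb2 (2.32) were called higher in C57BL/6. The part of these cell types in the levels of Serpinb2 or other inhibitors was not tested.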

How the data were processed

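RNA of BMMCs was harvested and stranded mRNA libraries were prepared. The authors checked reads with FastQC 0.11.5 and quantified transcripts with Salmon 0.8.2, and deposited for each library the estimated count (which need not be whole), the TPM and the lengths of 129698 transcripts. The study's methods name Ensembl GRCm39, while the deposited names are RefSeq accessions. These were matched to symbols without their version through a RefSeq table of GRCm38.p6, used for names (106440 matched, 82.1%). Unmatched transcripts held 2.69% to 3.12% of reads and stayed out. The estimated counts of a gene were added up, rounded and tested with edgeR 4.0.16 (R 4.3.3), with TMM, a minimum count of 10, strain as the only term and Benjamini-Hochberg adjustment over 12461 genes. The common biological coefficient of variation was 0.0665. With 3 libraries against 3, an exact permutation test cannot give a p below 0.1. On simulated counts of 12461 genes, 199 of 200 genes changed 4-fold were recovered with 8 other calls. The changed genes were drawn from those above a floor of mean reads. This recovery therefore does not cover genes with few reads or changes near 2-fold. Replicates differed by more than counting noise (chi-square per degree of freedom 6.27 to 12.8), and each counted as 1 sample.

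Members and lists were chosen with earlier results of these data known. Members that passed the filter are named, apart from 1 that is counted and not reported here, with every library's value for those called and the 8 with the highest mean TPM. Other members are named with 10 reads or more, and list genes when called or among at most 5 others of highest TPM. The pairs of inhibitor and protease set side by side, and the cathepsins beside them, were chosen after their values were seen. So were Agrn, Kazald1 and Wfikkn1 in a plot. Positions are from GENCODE vM39 (GRCm39), words of 31 bases from its transcripts, and promoters from RefSeq, aligned with Biopython 1.88. Alternatives were DESeq2 1.42.0, offsets for transcript length, other size factors and filters, limma 3.58.1 on log2 values of TPM with a pseudocount of 1 or 0.1, transcripts of the same version, unmatched transcripts kept, near relatives summed and each library left out. Fits of single transcripts of Serpina3f and Serpina3g were added after the data were seen.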

Additional observations from a re-analysis of the deposited data

How the results depend on the processing

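No paired analysis was possible because the groups share no replicate numbers. The number of inhibitors called higher in C57BL/6 BMMCs, 4, was 2 when 10 counts were required in every library (a stricter filter that leaves fewer genes), 1 with limma on log2(TPM + 1) and 8 on the adjusted p alone, and 4 to 5 with a library left out. The number higher in BALB/c, 4, was 7 on the adjusted p alone and 4 with each library left out. The other inhibitors higher in C57BL/6, 9, were 4 with limma on log2(TPM + 1) and 8 to 9 with a library left out. The proteases higher in BALB/c, 5, were 8 without a filter and 5 to 7 with a library left out. The calls over all genes, counted without regard to direction, moved as well. They were 1653 of 12461 in the main fit and 1017 of 11341 when 10 counts were required in every library. With limma on log2(TPM + 1) they were 799 of 12461, and without a filter 2050 of 18890. On the adjusted p alone, 6588 of 12461 genes passed. On log2(TPM + 1), which understates low genes, Serpinb2 was at 0.99, Itih5 at 0.61, Serpina3h at -0.51 and Serpinb6b at 0.42. With unmatched transcripts kept, Serpinb6b had an adjusted p of 0.0505 and Timp2 of 0.0518 (edgeR). The direction turned only for Cst3 without S10 (8e-04, range -0.069 to 8e-04 over libraries left out) and for Serpine2 without S9 (0.060, range -0.41 to 0.060), neither past a threshold, and the cause was not tested. Serpinf1 and Spink2 were called in the same direction under every alternative run. Depth limits what can be said of genes with few reads, Serpinb6b, Serpinb2, Serpina3h, Serpinb1c and Slpi.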
